A study of Mus musculus with 2 samples.

Results

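The wide Sox6 peaks are the 2372 regions of 400 bp or more among the 77750 Sox6 peaks called on the 19 autosomes of mouse rib chondrocytes, which is 3.05% of them. The whole Sox6 list holds 79107 peaks, and its X and Y chromosomes, with 44 further wide peaks, all on X, were left out of the rule. The Sox6 list comes from 1 chromatin immunoprecipitation (ChIP-seq) sample of primary rib chondrocytes taken from untreated wild-type ICR mice at postnatal day 1, with the antibody ab30455 to Sox6. The dissection kept the proliferative and prehypertrophic cartilage and left out mature hypertrophic regions. The study's other sample is 1 input DNA of the same cells, strain and age, made without antibody, and it entered no comparison here. A list of 23865 Sox9 peaks accompanies it, which the authors made again from earlier Sox9 data of mouse rib chondrocytes, whose strain and age are not stated in the labels used here. The wide peaks were chosen by their called width, so their widths are given as a description. They were set beside the 46382 autosomal Sox6 peaks of 100 to 200 bp, called narrow peaks below.

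SOX6 and SOX9 are transcription factors that bind DNA through an HMG box, a domain that bends the helix. SOX9 carries an activation domain and is required for cartilage to form, whereas SOX6 has none of its own and pairs with itself or with SOX5 through a coiled coil, acting beside SOX9 at enhancers of cartilage genes. In ChIP-seq a called peak is an interval of enriched fragments and not the footprint of the protein. A peak wider than others can cover several bound sites or a spread of fragments around 1 site, and width alone does not tell these apart. Each list gives the chromosome, start and end of a peak, with no score, read count or summit, so the centre of a peak below is the midpoint of its interval and the depth is unknown. Each factor has a single list, without replicates, and no difference below could be tested over samples. The 95% intervals, exact binomial for shares and Newcombe's for differences, cover counting error only and treat peaks as independent, which neighbouring peaks are not. Genes and sequence were not analysed here, because the gene and promoter tables used here are on GRCm38 and the peaks on mm9.

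The wide peaks covered 1058 kb, 8.04% of the summed width of autosomal Sox6 peaks. Their median width was 444 bp, with quartiles of 420 and 471 bp, against a median of 144 bp in the narrow class and 151 bp over all autosomal peaks. The counts fell slowly from 400 bp and then ended almost at once below 500 bp. There were 1340 wide peaks of 400 to 449 bp, 1018 of 450 to 499 bp, and 14 from 509 to 760 bp. No width lay between 498 and 509 bp. The Sox9 list stopped at nearly the same width, with 342 autosomal peaks of 400 to 449 bp, 253 of 450 to 499 bp with 498 bp as the widest, and 1 peak beyond, of 561 bp. The peak caller is not named in the sources used here, and the source of this edge was not tested.

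**Figure D1:**
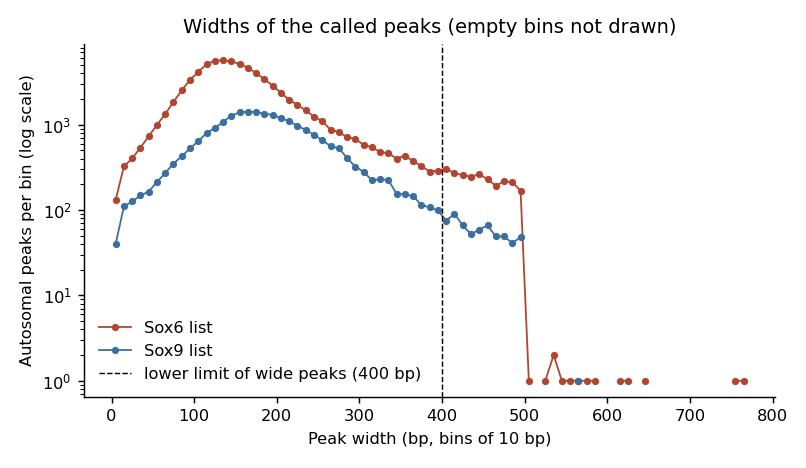
Number of autosomal peaks per 10 bp of width in the Sox6 and the Sox9 list, on a log scale, with the 400 bp limit of the wide class dashed. Both lists fall off below 500 bp, with 14 Sox6 peaks and 1 Sox9 peak beyond.

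The limit of 400 bp cuts a continuous range. The 306 peaks of 400 to 409 bp and the 289 of 390 to 399 bp had median list places of 45338 and 48288. Of those just inside the limit 23.2% overlapped a Sox9 peak, and of those just outside 17.3%. Of the peaks exactly 400 bp wide, the first 3 in the list were chr5:67370654-67371053 at place 6169, chr14:21028755-21029154 at place 6914 and chr18:38704398-38704797 at place 7035, each with 1 Sox9 peak. Of those 399 bp wide, the first 3 were chr14:73383075-73383473 at place 1205 with 1 Sox9 peak, chr2:144910457-144910855 at place 30314 with none and chr5:34037028-34037426 at place 35982 with none.

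Of the 10 widest peaks 2 overlapped a Sox9 peak, a share close to that of all Sox6 peaks (23.2%). The widest, chr3:143865192-143865951, measured 760 bp and stood at place 12398 of the list, and the nearest Sox9 centre was 49001 bp away. The next, chr14:76813996-76814746 with 751 bp, had its nearest Sox9 centre at 64208 bp and another Sox6 edge at 787 bp. Both therefore lay far from any Sox9 call, although the second had a close Sox6 neighbour. The peaks chr18:80347622-80348268 (647 bp), chr3:30993679-30994307 (629 bp), chr7:29161191-29161800 (610 bp) and chr3:51219610-51220192 (583 bp) also overlapped no Sox9 peak, with Sox9 centres 9282, 33714, 1677 and 6947 bp away. The 2 on Sox9 were chr11:5420785-5421358, 574 bp wide with a Sox9 centre 311 bp below its own, and chr6:86476218-86476773, 556 bp wide with a Sox9 centre 196.5 bp above. The last 2, chr2:136942631-136943191 (561 bp) and chr18:10181865-10182413 (549 bp), had their nearest Sox9 centres at 49157 and 224066 bp. Among all 14 peaks beyond 500 bp, 28.6% overlapped a Sox9 peak (8.39 to 58.1), an interval that holds the share of the whole wide class.

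The first comparison asked how often a wide Sox6 region was also called for Sox9. Of the 2372 wide peaks 470 overlapped a Sox9 peak by at least 1 bp, or 19.8% (18.2 to 21.5). The share was 25.7% (25.3 to 26.1) in the narrow class, where 11929 peaks did so, and 23.2% over all autosomal Sox6 peaks. Wide peaks thus met Sox9 less often than narrow ones by count (difference of -5.90 percentage points, -7.51 to -4.21), although a longer interval has more room to meet another. The difference turned over once list place was held equal. Averaged over 10 equal bins of the list with the wide peaks as weights, the difference was 2.68 percentage points, with 19.8% of wide and 17.1% of narrow peaks on Sox9. No interval was computed for this average, and it does not hold peak length equal. For a Sox9 centre within 50 bp of the Sox6 centre, a window of fixed size, the same average was -7.98 percentage points. With 50% of the Sox9 peak required to be covered, the difference in overlap over the whole list shrank to -1.55 percentage points. Its interval of -3.05 to 0.048 includes 0.

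The bins show where the values lie. In bin 1, the start of the list, 71.0% of 62 wide peaks (58.1 to 81.8) and 71.7% of 5921 narrow peaks overlapped Sox9. In bin 3 the shares were 38.5% (32.1 to 45.2) of wide and 32.8% (31.5 to 34.1) of narrow peaks, and in bin 6 they were 21.2% (16.6 to 26.4) and 12.4% (11.4 to 13.4). In bin 10 they had come down to 3.79% (1.91 to 6.69) and 5.48% (4.78 to 6.24). Sharing with Sox9 thus declined along the list in both classes, and bin 6 was the bin with the widest gap in favour of wide peaks. Wide peaks were above narrow ones in 6 of the 10 bins and below in 4.

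**Figure D2:**
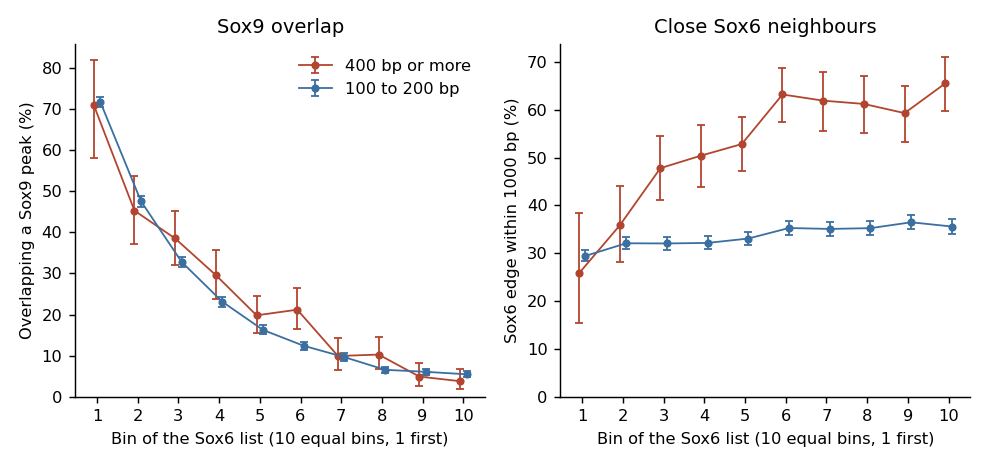
Share of Sox6 peaks that overlapped a Sox9 peak (left) and share with another Sox6 edge within 1000 bp (right), by bin of the Sox6 list, for peaks of 400 bp or more and of 100 to 200 bp, with 95% exact binomial intervals as bars. On the left both classes fall from about the same share, 71.0% and 71.7%, and on the right they separate after bin 2.

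Sox9 centres were seldom in the middle of a wide Sox6 peak. A window that does not grow with the peak shows this: a Sox9 centre lay within 50 bp of the Sox6 centre in 65 wide peaks, 2.74% (2.12 to 3.48), against 7590 narrow peaks, 16.4% (16.0 to 16.7), and 13.6% of all autosomal Sox6 peaks. The wide share was lower in all 10 bins of the list, ranging from 1.03% to 6.45% where the narrow share ranged from 3.16% to 46.6%. A narrow peak has its edges within 100 bp of its centre, so the Sox9 peaks that overlap it lie nearer to the centre by construction. Within 100 bp the gap was larger, with 6.07% and 22.9%, and beyond that it closed as the window widened. Within 250 bp the shares were 17.9% and 27.1%, against 24.5% of all peaks, and within 1000 bp they were 28.9% and 32.9%, against 31.2%. By bin of the list, however, the wide share within 1000 bp was above the narrow one in 8 of the 10 bins and below in 2. Within 5000 bp 45.4% of wide peaks (43.3 to 47.4) and 46.1% of narrow peaks had a Sox9 centre, against 45.2% of all, a difference of -0.70 percentage points (-2.74 to 1.36). At that distance the interval of the difference included 0.

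Where a Sox9 centre did lie near a wide peak, it lay mostly on 1 side, towards higher coordinates. Of the 522 wide peaks with a Sox9 centre within 500 bp, 352 had the nearest one above their own centre and 170 below. The higher side thus held 67.4% (63.2 to 71.4), against 47.9% (47.1 to 48.8) of 13483 narrow peaks and 49.1% of all autosomal Sox6 peaks with such a centre. The difference between wide and narrow peaks was 19.5 percentage points (15.3 to 23.5). The median offset was 92.25 bp in wide peaks, with quartiles of -97.75 and 175 bp, and -2.5 bp in narrow ones. A centre is the midpoint of a called interval, so a Sox9 site off the middle and a Sox6 interval placed low around its site cannot be told apart here. This side was examined only after the profile around the peaks had been seen.

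The profile in steps of 50 bp had its highest point 150 to 200 bp above the centre of wide peaks, with 85 Sox9 centres or 3.58 per 100 peaks. The mirror step, 150 to 200 bp below, held 35 centres or 1.48 per 100 peaks. The low steps were those from 100 to 50 bp and from 50 to 0 bp below the centre, with 21 centres each, between a lower shoulder of 39 centres at 150 to 100 bp below and the rise that began with 44 centres just above the centre. In narrow peaks the 2 steps beside the centre were the highest, with 8.30 and 8.01 centres per 100 peaks, and the profile was nearly even on both sides.

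**Figure D3:**
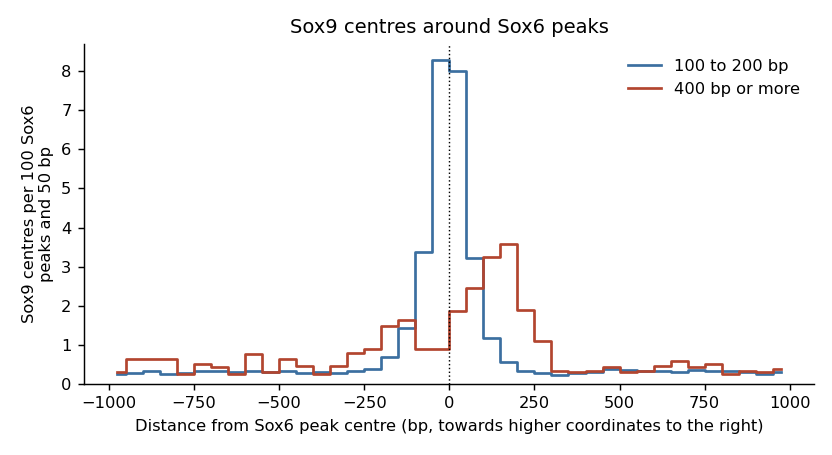
Sox9 centres per 100 Sox6 peaks in steps of 50 bp from the Sox6 centre, for peaks of 400 bp or more and of 100 to 200 bp, with higher coordinates to the right. Narrow peaks show 1 summit at the centre, and wide peaks a larger shoulder at 150 to 200 bp above the centre and a smaller one below it.

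Inside wide peaks fell 418 Sox9 centres, or 17.6 per 100 peaks, and inside narrow peaks 9275, or 20.0 per 100 peaks. Per 100 kb of peak the values were 39.5 and 137, where the divisor is the width that chose the peaks. With each wide peak cut into 5 equal parts from the lower to the higher coordinate, the parts held 62, 46, 55, 116 and 139 Sox9 centres. The last part alone held 33.3% of them and the first 14.8%. In narrow peaks the same parts held 1236, 2128, 2717, 2012 and 1182 centres, most in the middle and about as many at either end.

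The lean to higher coordinates was seen on each autosome and over most of the list. On all 19 autosomes more wide peaks had their nearest Sox9 centre above than below, from 15 against 12 on chromosome 9 to 13 against 2 on chromosomes 13 and 16. By list place it was absent at the start, where 21 lay above and 24 below in bin 1. It was largest in the middle, with 59 against 18 in bin 4, 55 against 16 in bin 5 and 56 against 13 in bin 6. In bin 8 the count was 15 against 18. Wide peaks without another Sox6 edge within 1000 bp showed it as well, with 69.5% of 282 on the higher side (63.8 to 74.8), and so did wide peaks that overlap no other Sox6 peak, with 67.9% of 464. The lean was thus about as large without close Sox6 neighbours.

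The lean grew with peak width, and it appeared in the Sox9 list too. The share on the higher side was 48.7% of Sox6 peaks of 100 to 149 bp (47.6 to 49.8), 49.2% at 250 to 299 bp, 52.1% at 300 to 349 bp, 56.7% at 350 to 399 bp, 66.1% at 400 to 449 bp and 69.4% at 450 to 499 bp (63.0 to 75.3). The Sox9 list was then read the other way, from the centre of each Sox9 peak to the nearest Sox6 centre within 500 bp. Of its 596 autosomal peaks of 400 bp or more, 508 had such a Sox6 centre, and 327 of these lay above and 181 below, or 64.4% (60.0 to 68.5). For Sox9 peaks of 100 to 200 bp the share was 49.5% (48.5 to 50.4), and the difference was 14.9 percentage points (10.5 to 19.1). By width the Sox9 list went from 50.2% at 250 to 299 bp to 61.0% at 400 to 449 bp and 69.0% at 450 to 499 bp. In each list, then, it was the centre of the wider interval that lay low relative to the other factor's centre. Both readings use the same pair of lists, and only 23 wide Sox6 peaks overlapped a Sox9 peak of 400 bp or more. The source of the lean was not tested.

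**Figure D4:**
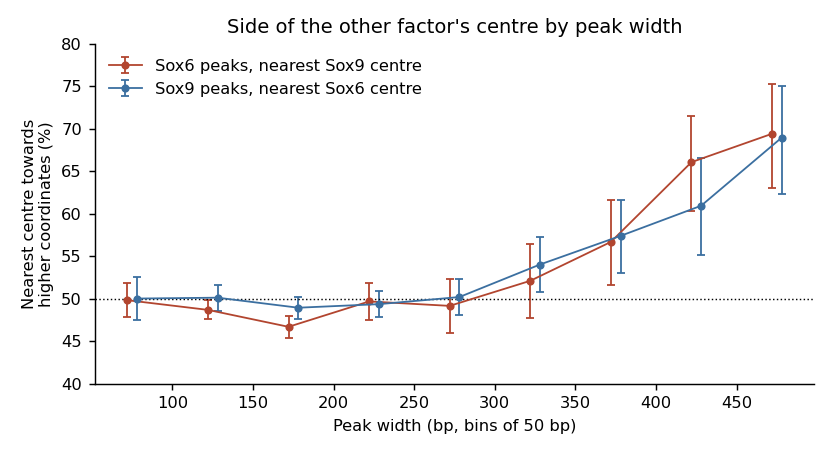
Share of peaks whose nearest centre of the other list, within 500 bp, lies towards higher coordinates, by width of the peak in bins of 50 bp, with 95% exact binomial intervals. In both lists the share stays near the dotted 50 line up to 300 bp and rises to 69.4% for Sox6 and 69.0% for Sox9 at 450 to 499 bp.

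By their median, the Sox9 partners of wide Sox6 peaks were of ordinary width. The widest Sox9 peak on each had a median of 187.5 bp, against 186 bp for narrow Sox6 peaks and 183 bp over the autosomal Sox9 list. A Sox9 peak of 400 bp or more was found on 23 of the Sox9-overlapping wide peaks, or 4.89%, and on 281 of the narrow ones, or 2.36%. The autosomal Sox9 list holds 596 such peaks among 23615. No interval was computed for these shares. In 197 of the 470, or 41.9%, a Sox9 peak lay wholly inside the wide peak. The same held for 7.65% of the Sox9-overlapping narrow peaks, and narrow peaks are mostly shorter than a Sox9 peak.

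A small number of wide peaks carried 2 Sox9 peaks. There were 30, 6.38% of those on Sox9, against 71 narrow peaks or 0.595%, and none carried 3. The classes were chosen by width, and a longer interval has more room for 2 Sox9 peaks. These shares are therefore a description, and the share over all Sox6 peaks was not computed. In all 30 the Sox9 centres lay 1 on each side of the Sox6 centre. Separate intervals on the same peak tend to lie so by their geometry. The first 5 of these in list order were chr10:120188591-120189013 at place 1649, chr18:77293173-77293584 at place 3297, chr4:43038295-43038779 at place 4580, chr10:82768111-82768589 at place 8435 and chr7:29743124-29743575 at place 8440. The nearer Sox9 centre lay below the Sox6 centre in the first 2, by 175 and 141.5 bp, and above it in the other 3, by 167, 190.5 and 197.5 bp. The peak on chromosome 10 at place 8435 had no other Sox6 peak within 17373 bp, while the one on chromosome 7 belonged to a run of 17 Sox6 peaks.

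Few wide peaks stood early in the Sox6 list. The order of that list is not documented, but sharing with Sox9 falls along it. The median place of wide peaks was 44498, at 56.2% of the list (54.7 to 58.4), and that of narrow peaks 35513, at 44.9%. Wide peaks made up 0.791% of bin 1, 1.89% of bin 2 and 2.90% of bin 3, then between 3.09% and 4.09% of every later bin. Only 2.61% of the wide peaks (2.01 to 3.34) were in bin 1, against 12.8% of narrow peaks and 10.1% of all autosomal peaks. The 14 peaks beyond 500 bp were placed differently, all between places 2278 and 21371, within the first 27.0% of the list. Place and width come from the same call, so these values describe the list.

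Of the 5 earliest wide peaks 4 carried Sox9, and of the 5 last none did, near the shares of either class at those places. In bin 1 71.0% of wide and 71.7% of narrow peaks overlapped Sox9, and in bin 10 3.79% and 5.48%. The earliest wide peak, chr10:85563263-85563679 at place 458, had no Sox9 overlap, and the nearest Sox9 centre was 3440 bp away. The following 4 each overlapped Sox9. They were chr1:31006754-31007239 at place 1396, chr10:120188591-120189013 at place 1649, chr17:75509994-75510450 at place 1746 and chr3:141885622-141886065 at place 1915, and the nearest Sox9 centre lay 98, 175, 280 and 121.5 bp below theirs. At the end of the list stood chr8:86192695-86193140 at place 79027, chr6:135325229-135325662 at place 79081, chr11:16446553-16447037 at place 79084, chr17:14508486-14508917 at place 79086 and chr1:120419803-120420266 at place 79090. None of these 5 overlapped Sox9, and their nearest Sox9 centres were from 2835 to 170031 bp away. The one on chromosome 8 overlapped another Sox6 peak of 287 bp, and the one on chromosome 1 had no other Sox6 edge within 34744 bp.

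Other Sox6 peaks lay close to wide peaks more often than to narrow ones. Measured from edge to edge, 1324 wide peaks, 55.8% (53.8 to 57.8), had another Sox6 peak within 1000 bp, against 33.4% (33.0 to 33.8) of narrow peaks and 37.0% of all autosomal peaks. The difference was 22.4 percentage points (20.4 to 24.4). The median distance to the nearest Sox6 edge was 732 bp for wide peaks (658 to 827) and 2630 bp for narrow ones (2564 to 2706). Within 100 bp the shares were 18.97% and 1.76%, against 3.35% of all, and within 5000 bp they were 76.0% and 61.7%, against 64.0%. Overlapping calls are counted here at a distance of 0. Of the 450 wide peaks within 100 bp 341 lay at that distance, and of the 816 narrow ones 87. With these calls included, the gap between the classes was largest in ratio at the shortest distances. It also opened along the list: in bin 1 the share within 1000 bp was 25.8% of wide peaks (15.5 to 38.5) and 29.5% of narrow ones, whereas in bin 10 it was 65.5% (59.7 to 71.0) and 35.6%.

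**Figure D5:**
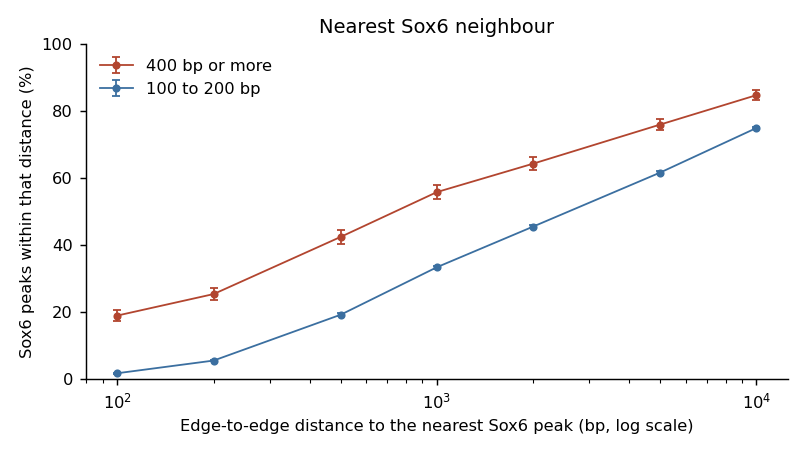
Share of Sox6 peaks with another Sox6 peak within a given edge-to-edge distance (log scale), for peaks of 400 bp or more and of 100 to 200 bp, with 95% exact binomial intervals. The wide class is higher at each distance drawn, from 18.97% against 1.76% within 100 bp to 84.7% against 74.9% within 10000 bp. Peaks that overlap another Sox6 peak are included at each distance.

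Many of the nearest neighbours overlapped the wide peak itself. Of the wide peaks 341, or 14.4% (12.99 to 15.9), overlapped another Sox6 peak, against 85 narrow peaks, or 0.183%, and 1.41% of all autosomal peaks. Of the 572 overlapping pairs on autosomes 292, or 51.0%, held a wide peak, and in 69 both were wide. The overlap in pairs with a wide peak had a median of 110.5 bp and reached 251 bp at most, and the narrower partner had a median width of 348 bp. The remaining pairs held no wide peak, and of the 1099 overlapping peaks 341 were wide. Overlapping calls were kept as deposited. Wide peaks that overlapped another Sox6 peak carried Sox9 in 14.1% of cases (10.6 to 18.2), and the other 2031 in 20.8% (19.03 to 22.6). They also stood later in the list, at a median place of 50703 against 42994, and the part of list place was not tested. Without the overlapping peaks, the difference between wide and narrow peaks in close neighbours fell to 15.1 percentage points.

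With overlapping calls included, wide peaks also had wide neighbours more often. The nearest Sox6 peak was itself wide in 9.53% of cases (8.38 to 10.8), against 2.98% for narrow peaks and the 3.05% that wide peaks make up of the list. The median width of the nearest Sox6 peak was 170 bp beside a wide peak and 151 bp beside a narrow one. These values count neighbours that overlap the wide peak, and in 69 overlapping pairs both peaks were wide. Whether wide neighbours remain more frequent without overlapping calls was not tested. The neighbour within 1000 bp stood earlier in the list than the wide peak in 56.3% of cases (53.6 to 59.0), and earlier than the narrow peak in 43.8% (43.0 to 44.6), with wide peaks themselves placed later. Within 1000 bp, 36.8% of wide peaks had a Sox6 edge below and 33.8% above. Within 500 bp of the centre, other Sox6 centres lay more often towards lower coordinates, with 367 below and 272 above, or 57.4% below (53.5 to 61.3), against 48.5% (47.3 to 49.8) around narrow peaks. Close Sox6 neighbours of wide peaks thus leaned to the side opposite to Sox9 centres, a count added after the values were seen. Wide peaks with a Sox6 peak within 1000 bp overlapped Sox9 in 15.2% of cases (13.3 to 17.2), and those without one in 25.7% (23.0 to 28.4). For narrow peaks the values were 20.7% and 28.2%, so in both classes the peaks with a close neighbour were on Sox9 less often by count. Wide peaks with a close neighbour also stood later in the list, at a median place of 48178 against 39416, and the part of list place in this difference was not tested.

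Clusters were taken as runs of 3 or more Sox6 peaks with neighbouring centres within 12500 bp. Such runs held 1670 wide peaks, 70.4% (68.5 to 72.2), against 61.8% of narrow peaks (61.4 to 62.3) and 63.3% of all autosomal peaks. The difference of 8.57 percentage points (6.65 to 10.4) was smaller than that in close neighbours. Overlapping calls count as separate peaks of a run. Of the wide peaks that overlapped another Sox6 peak 86.5% were in such runs, and of the others 67.7%. Without overlapping peaks the difference was 5.91 percentage points (3.79 to 7.95). Wide peaks made up 1.98% of the peaks that stood alone (1.77 to 2.21), 3.03% of those in pairs, 3.32% in runs of 3 to 9, 3.41% in runs of 10 to 19 and 3.96% in runs of 20 or more (3.40 to 4.58). They were spread over many places: 1847 runs, single peaks included, held 1 wide peak, 206 held 2, and 31 held 3 or more.

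In the 5 clusters with the most wide peaks, 3 of the 27 wide peaks (11.1%) overlapped Sox9, close to the 55 of all their 407 Sox6 peaks (13.5%). A further cluster tied with the last 4, as 5 clusters held 5 wide peaks each, and ties were settled by the larger share of wide peaks. The cluster chr3:113729632-113902839 spanned 173 kb and held 7 wide peaks among 103 Sox6 peaks. None of those 7 overlapped Sox9, and 7 of all its 103 peaks did. In chr17:34161544-34214794, over 53.3 kb, 5 of 34 Sox6 peaks were wide, which at 14.7% was the highest proportion of these clusters, and none of these was on Sox9, as against 2 of the 34. The other 3 each held 5 wide peaks, of which 1 was on Sox9. They were chr14:120656448-120816358 with 64 Sox6 peaks, 8 of them on Sox9, chr3:27413225-27609433 with 100 and 17, and chr4:62820119-63004733 with 106 and 21. These 27 are a small part of the 2372, and a cluster with many peaks has more room for wide ones.

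Wide peaks occurred on each autosome. They made up from 2.63% of Sox6 peaks on chromosome 8 (2.15 to 3.17) to 3.49% on chromosome 14 (2.87 to 4.19), with intervals that overlap. The share of wide peaks on Sox9 ranged from 13.9% on chromosomes 13 and 19 to 25.9% on chromosome 2. A wide peak that touched Sox9 was usually its only Sox6 partner, since 31 of the 490 Sox9 peaks that touched a wide peak, 6.33% (4.34 to 8.86), also touched another Sox6 peak. For narrow peaks it was 55 of 11982, or 0.459%. Wide peaks overlapped another Sox6 peak in 14.4% of cases and narrow peaks in 0.183%. The part of these overlapping calls in the contrast was not tested.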

How the data were processed

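Both peak lists were used as deposited by the authors, with 3 columns and no header. Reads were aligned with Bowtie and the build is mm9, per the submitters' processing notes, which give no versions. Each list is marked FDR in its name, which the labels do not explain further. No source used here names the peak caller or its filters, except that Sox9 peaks were called as Sox6 peaks were, per the series' design text. A build for the Sox9 list alone is not given, and it was taken as mm9. Starts were read as counted from 0 and are printed from 1. Overlap, distances, runs and intervals were computed in Python 3.11.15 with numpy 2.4.6, pandas 2.3.3 and scipy 1.17.1. Overlap with Sox9, the nearest Sox9 centre and the nearest Sox6 edge were tested on simulated lists. Runs and the side of the Sox9 centre were not tested in this way. The wide peaks, the comparison class, the tests and the named regions (the widest, earliest and last, those with most Sox9 peaks, the clusters with most wide peaks, and those at the limit) were chosen with earlier results of these data known. The side of the Sox9 centre, overlapping pairs, order of neighbours and partner counts were added after the values were seen. Planned counts by gene, promoter and motif were not run, since no mm9 annotation or sequence was used.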

Additional observations from a re-analysis of the deposited data

How the results depend on the processing

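Of 57 alternative values over 6 results, 34 stayed within the interval of the reported value and 4 turned direction. The other 19 moved outside that interval without a turn of direction, some to smaller and some to larger differences. The first 3 turns came from the 14 peaks of 500 bp or more, with differences from narrow peaks of 2.85 percentage points in Sox9 overlap, -28.6 in list place and -4.83 in close Sox6 neighbours, while the centre window gave -16.4 and clustering 23.9, all on few peaks. The fourth was Sox9 overlap within bins of list place, at 2.68, and the centre window there was -7.98. Against all peaks under 400 bp the differences were -3.51 in overlap, -11.2 in the centre window, 6.67 in list place and 19.4 in neighbours. Without peaks that overlap another Sox6 peak, list place differed by 9.51, clustering by 5.91 and neighbours by 15.1. With 50% of the Sox9 peak covered, overlap differed by -1.55, with an interval that includes 0. The centre window gave -9.22 at 250 bp, -4.05 at 1000 bp and -8.98 with the first 50% of the Sox9 list. Clustering differed by 12.3 with a gap of 5000 bp and 5.32 with 25000 bp, and neighbours by 14.3 within 5000 bp. From 350 bp up, list place differed by 13.8 and the higher side held 62.9%. The causes of these moves were not tested. No paired analysis was possible because each group has 1 sample and no test over samples was made.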
